A study of Mus musculus with 6 samples.

Results

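The 56 genes described here were grouped around the pathway of Plcg1, the gene targeted by the hairpins. The group covers phospholipases C, protein kinases C and D, calcium channels and the calcium-dependent phosphatases, factors and kinases downstream of them. The genes were taken from a list of symbols, and all 56 were found among the 21883 protein-coding genes of the mouse RefSeq table placed on chromosomes 1 to 19, X and Y. A peak counted for a gene when it touched the gene body or the 10 kb on either side. Of the 56 members, 33 held a peak in at least 1 of the 4 peak lists and 23 held none in any list.

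Methylated, CpG-dense DNA was captured with MBD2-Fc, a methyl-CpG binding domain joined to an antibody tail, and sequenced from I/11 cells, a mouse erythroblast line set up from fetal liver (E12.5) of p53-deficient embryos. All cells carried a lentiviral short hairpin RNA and had been selected with puromycin: hairpin 133 or hairpin 14 against Plcg1, or a scrambled control. Cells were taken 72 h after infection, when they still grew with Epo, SCF and dexamethasone (0 h), or 96 h after infection, after 24 h in differentiation medium with 10 U/ml Epo and holo-transferrin (24 h). Each hairpin and time is 1 library of this 1 line, and the peak lists of the 4 libraries made with hairpins 133 and 14 were read. Lists of the 2 scrambled libraries were not analysed here, so no background in control cells can be set beside the values. With 1 library per group there is no replicate check and no test between conditions. A peak is a listed stretch of about 150 bp with no score, of the same width in all but 1 of the 12963 listed. The sources used here do not give the library it was called against, so a peak carries no direction of methylation. The lists held 3900 and 3437 peaks at 0 h (hairpins 133 and 14) and 2960 and 2666 at 24 h. Genomic DNA measures neither the Plcg1 transcript nor the markers of an erythroblast, so neither the knockdown nor the cell type was checked.

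Phospholipase C cuts the membrane lipid PIP2 into IP3 and diacylglycerol. IP3 opens the IP3 receptors (Itpr1, Itpr2 and Itpr3), which are calcium release channels of the endoplasmic reticulum. Diacylglycerol recruits protein kinases C other than the atypical isoforms, protein kinases D and the RasGRP exchange factors. Emptied stores are sensed by STIM proteins, which open ORAI channels of the plasma membrane, and the calcium that enters activates calcineurin, NFAT factors and calmodulin-dependent kinases. Phospholipase C gamma 1 is the isoform that tyrosine kinase signalling switches on, and in erythroid cells it acts downstream of the erythropoietin receptor.

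Plcg1 itself (chromosome 2, 160731310 to 160775760, 44.5 kb) had 0 peaks in every list. For hairpin 133 the peak nearest to its body was 263 kb off at 0 h and 217 kb off at 24 h. For hairpin 14 these distances were 235 kb and 2121 kb. The start region of Plcg1 in RefSeq (GRCm38.p6, chr2:160731060-160731359, plus strand, 250 bases before to 50 after the start) holds 27 CG pairs in 300 bases and a GC share of 72.0%. It is shown as the start of the targeted gene, where no peak was listed, with CG pairs in capitals.

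Plcg1: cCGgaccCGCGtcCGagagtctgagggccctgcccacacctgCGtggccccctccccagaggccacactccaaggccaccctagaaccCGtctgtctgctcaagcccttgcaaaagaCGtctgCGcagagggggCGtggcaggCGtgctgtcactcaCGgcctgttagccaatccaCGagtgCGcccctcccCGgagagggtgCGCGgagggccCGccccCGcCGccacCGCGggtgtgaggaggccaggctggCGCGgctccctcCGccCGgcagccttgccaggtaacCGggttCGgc

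Among the 43 members with a start region in RefSeq, Prkd3, the gene of protein kinase D3, was the one whose own start region a peak touched. The 13 members without a listed start region, Prkch among them, could not be scored for this. The peak was listed with hairpin 14 at 0 h and in no other list (chromosome 17, 79020927 to 79021077), 111 bp outside the gene body. It covers the first 140 of the 300 bases (chr17:79020767-79021066, minus strand), in capitals below, with 17 of the 45 CG pairs of the region.

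Prkd3: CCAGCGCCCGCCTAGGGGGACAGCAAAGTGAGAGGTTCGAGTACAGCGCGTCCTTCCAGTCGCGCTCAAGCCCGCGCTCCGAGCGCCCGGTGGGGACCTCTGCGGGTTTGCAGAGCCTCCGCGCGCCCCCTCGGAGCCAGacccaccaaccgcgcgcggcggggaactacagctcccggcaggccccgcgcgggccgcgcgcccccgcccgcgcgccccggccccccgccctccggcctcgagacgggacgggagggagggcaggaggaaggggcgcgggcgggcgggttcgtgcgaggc

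A peak counted for Plcd1, a phospholipase C delta gene, lay on the start of its neighbour Dlec1 and 8.92 kb from the body of Plcd1. Hairpin 14 had it at both times (chromosome 9, 119102420 to 119102572, with starts 2 bp apart) and hairpin 133 at neither. The nearest peak of hairpin 133 at 0 h lay 10.6 kb from the body of Plcd1, just outside the 10 kb limit. The Dlec1 start region (chr9:119102259-119102558, plus strand) is shown because it is the other listed start region that a member's peak touched. Capitals mark the 139 bases inside the 0 h peak, which hold 8 of the 14 CG pairs.

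Dlec1: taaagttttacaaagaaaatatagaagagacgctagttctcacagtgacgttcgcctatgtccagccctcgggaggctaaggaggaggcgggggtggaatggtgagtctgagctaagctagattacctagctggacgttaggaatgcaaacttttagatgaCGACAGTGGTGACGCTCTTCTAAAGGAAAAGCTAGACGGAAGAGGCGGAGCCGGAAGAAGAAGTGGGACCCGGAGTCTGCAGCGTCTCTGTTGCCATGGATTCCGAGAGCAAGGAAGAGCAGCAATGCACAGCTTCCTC

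Members with a peak numbered 19 of 56 with hairpin 133 at 0 h (33.9%, against 12.7% of all protein-coding genes) and 17 with hairpin 14 at 0 h (30.4%, against 11.0%). At 24 h they numbered 15 with hairpin 133 (26.8%, against 10.5%) and 9 with hairpin 14 (16.1%, against 9.72%). Over all lists, 58.9% of members and 26.0% of protein-coding genes had a peak. Members are also longer than most genes: the median body of a member was 94.96 kb, against 17.2 kb for all protein-coding genes, and long genes held peaks more often in every list. When each member was given the share of its own length class (under 30, 30 to 100, 100 to 300 or over 300 kb), the background was 24.1% (hairpin 133) and 20.7% (hairpin 14) at 0 h, then 18.6% and 17.1% at 24 h. Members then stood at 1.41, 1.47 and 1.44 times the background in the first 3 lists and at 0.939 times with hairpin 14 at 24 h. Every later background at given lengths uses these classes, which are broad, and lengths within a class were not matched. Over all lists the background at these lengths was 43.1%, and members stood at 1.37 times it. No test against chance was run on these shares, and nothing particular to the pathway is read from them.

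**Figure D1:**
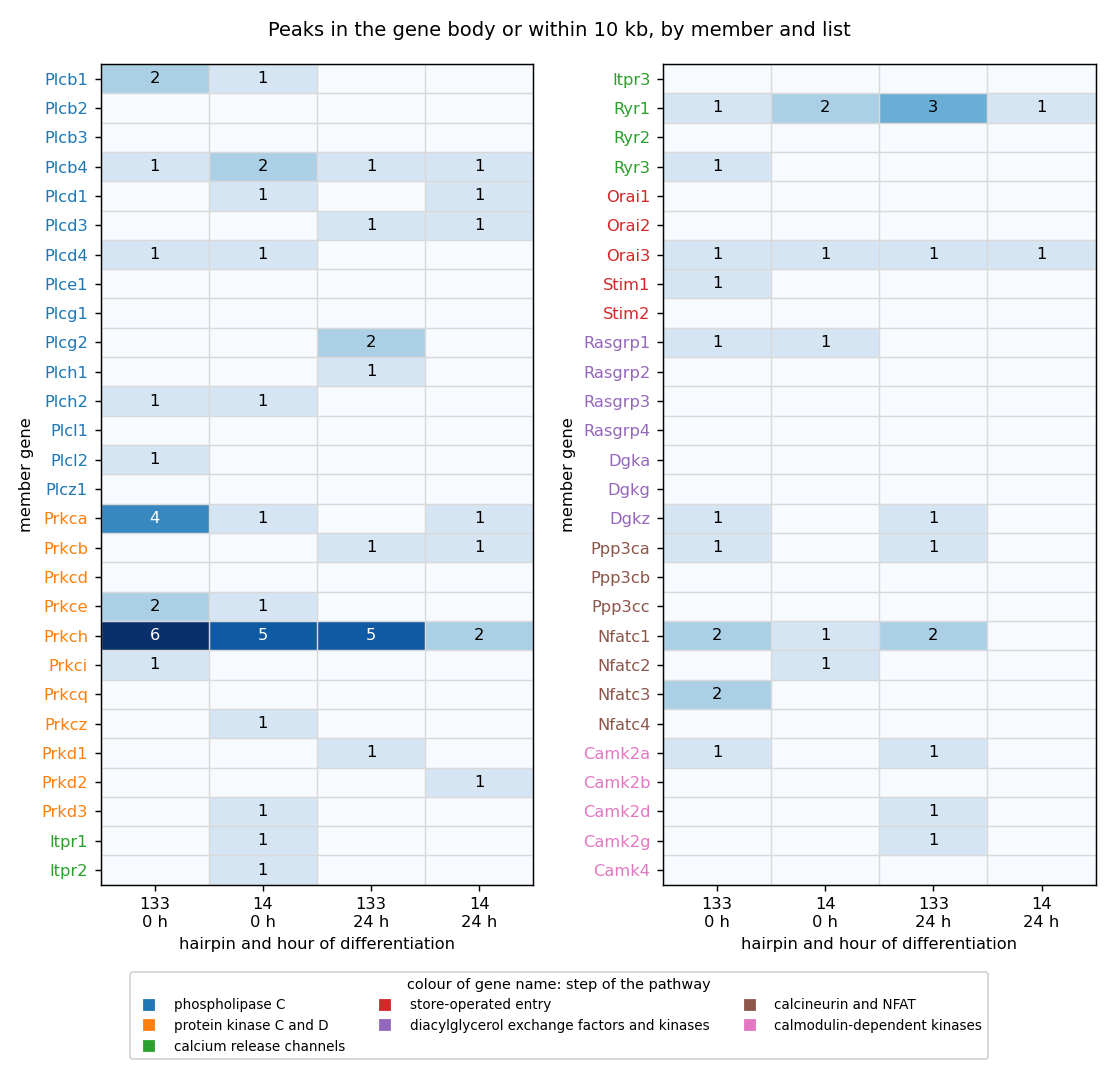
Number of peaks in the body or within 10 kb of each of the 56 members (rows, gene names coloured by step of the pathway) in each of the 4 lists (columns, hairpin and hour), with empty cells for 0 peaks. Prkch stands out with 6, 5, 5 and 2 peaks, and Plcg1 has an empty row.

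The classes differed in how members stood to other genes of their size. Of the 12 members over 300 kb, 5 held a peak with hairpin 133 at 0 h (background 43.5%), 6 with hairpin 14 at 0 h (36.3%), and 3 with each hairpin at 24 h (34.0% and 29.0%). Over the 4 lists, 9 of these 12 had a peak, or 75%, against 68.0%. Of the 15 members of 100 to 300 kb, 6 held a peak with hairpin 133 (30.2%) and 5 with hairpin 14 (26.6%) at 0 h. At 24 h there were 7 with hairpin 133, or 46.7% against 22.0%, and 2 with hairpin 14, or 13.3% against 21.5%. In this class 11 of 15 had a peak in some list (background 53.7%), and it was where the hairpins were farthest apart at 24 h. Of the 17 members of 30 to 100 kb, hairpin 133 gave 6 at 0 h (16.2%) and 4 at 24 h (12.8%), and hairpin 14 gave 3 (14.2%) and 1 (12.4%), with 9 in some list (34.0%). Of the 12 members under 30 kb, 2 held a peak at 0 h (8.02%) and 1 at 24 h (7.28%) with hairpin 133, and 3 at each time with hairpin 14 (6.93% and 6.48%), with 4 in some list (17.9%). The short members with a peak of hairpin 14 were Plcd1, Plcd4 and Orai3 at 0 h and Plcd1, Prkd2 and Orai3 at 24 h, and in each of them the peak lay outside the gene body.

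**Figure D2:**
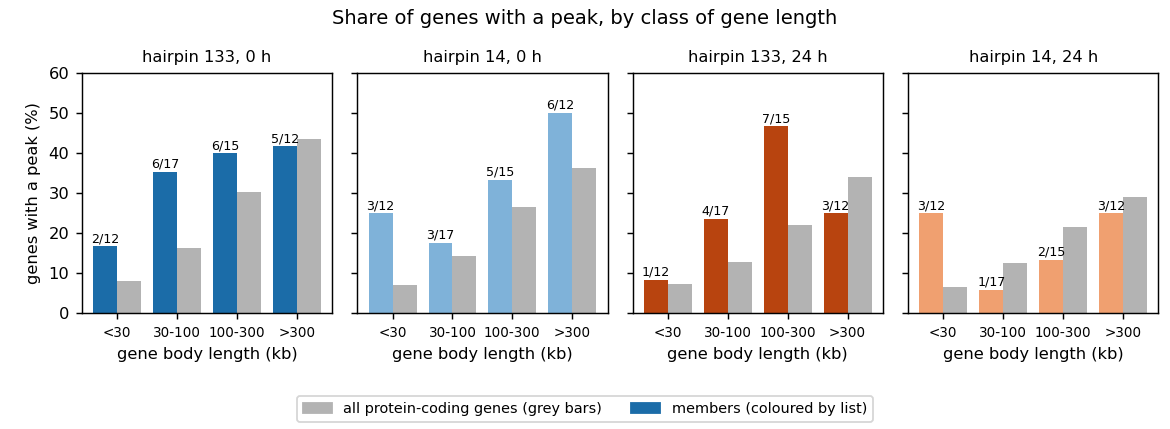
Share of genes with a peak (y axis, percent) by class of body length (x axis, kb) for the members (coloured bars, with members with a peak over members in the class) and all protein-coding genes (grey bars), 1 panel per list. Grey bars climb with length in every list, and members of 100 to 300 kb reach 46.7% with hairpin 133 at 24 h but 13.3% with hairpin 14 at the same time.

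Peaks in member windows numbered 31 and 23 at 0 h and 23 and 10 at 24 h (hairpins 133 and 14). As a share of the whole list these were 0.795% (95% exact binomial interval 0.541 to 1.13%), 0.669% (0.425 to 1.002%), 0.777% (0.493 to 1.16%) and 0.375% (0.180 to 0.689%). The list of hairpin 14 at 24 h was lowest, and its interval overlaps the other 3. With hairpin 133, member peaks at 24 h came to 0.742 times those at 0 h, close to the 0.759 times of the whole list. With hairpin 14 the ratio was 0.435, against 0.776 for the whole list. Of the 33 member peaks of hairpin 14, 30.3% were at 24 h (15.6 to 48.7%), an interval that takes in the 43.7% of all its listed peaks. These intervals cover counting error only.

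The 87 member peaks merged into 62 regions, or 6.15 regions per Mb of window (exact Poisson 95% interval 4.72 to 7.89), against 5.56 per Mb over the windows of all protein-coding genes. Prkch alone held 10 of them, and without it the density was 5.27 per Mb (3.94 to 6.91). By step, protein kinases C and D stood highest at 10.5 per Mb (6.78 to 15.5), or 6.91 (3.87 to 11.4) without Prkch. Calcineurin and NFAT genes had 9.53 (4.11 to 18.8) and phospholipases C 4.97 (2.71 to 8.33). Calmodulin-dependent kinases had 4.82 (1.31 to 12.3), store-operated entry genes 4.52 (0.548 to 16.3), diacylglycerol exchange factors and kinases 3.38 (0.410 to 12.2) and calcium release channels 3.21 (1.29 to 6.62). The step of protein kinases C and D with Prkch was the one whose interval lay above the value of all protein-coding genes (5.56). Without Prkch its interval took in that value.

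**Figure D3:**
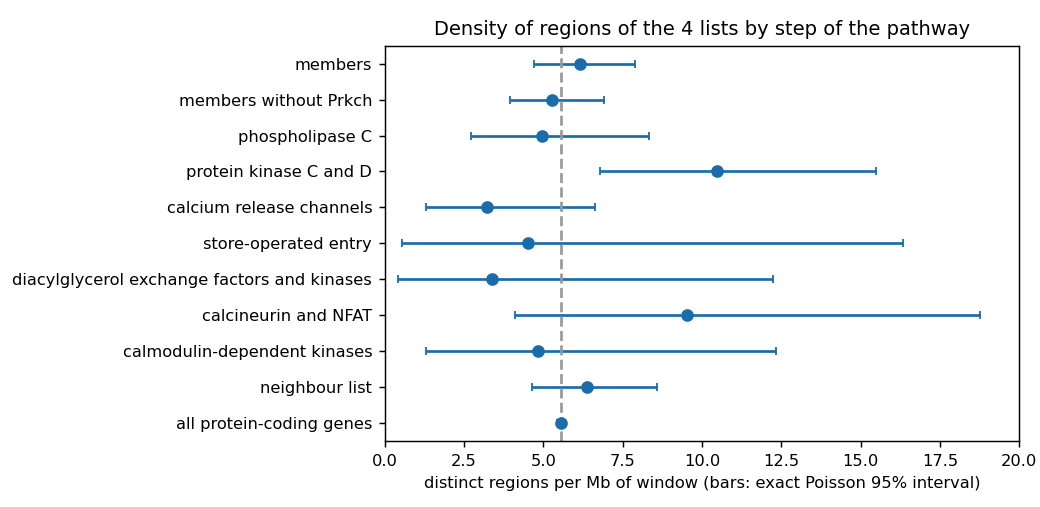
Distinct regions of the 4 lists per Mb of merged gene window (x axis; bars, exact Poisson 95% interval for counting error) for the members, the 7 steps, 51 other genes of the pathway (neighbour list) and all protein-coding genes (dashed line at 5.56). Protein kinases C and D sit at 10.5 per Mb, and the members without Prkch at 5.27, below the dashed line.

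Among the 15 phospholipases C, 9 had a peak in some list: 5 with each hairpin at 0 h, then 4 with hairpin 133 and 3 with hairpin 14 at 24 h. At the lengths of these genes the background would give 3.62 and 3.10 at 0 h and 2.82 and 2.56 at 24 h. Over all lists it would give 6.41. Plcb4, an isoform that Gq proteins activate, was the phospholipase C with peaks in all lists, at 1, 2, 1 and 1 peaks (hairpins 133 and 14 at 0 h, then at 24 h). These formed 3 regions in its body of 356 kb, and no region was common to all lists. The region at chromosome 2, 135804500 to 135804672, was listed with both hairpins at 0 h, with starts 22 bp apart. Another, at 135770263 to 135770416, was listed with hairpin 14 at 0 h and hairpin 133 at 24 h, that is, in lists that share neither hairpin nor time. Plcb1, of the same subfamily and 689 kb long, had 2 peaks with hairpin 133 and 1 with hairpin 14 at 0 h, at 3 separate places, and 0 at 24 h. The hairpin 133 peaks began at 134792855 and 135049408 of chromosome 2, the hairpin 14 peak at 134867641.

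The delta isoforms of phospholipase C each had 1 region. For Plcd3 it was listed with both hairpins at 24 h at identical coordinates (chromosome 11, 103101059 to 103101209), 524 bp into the gene from its start. Plcd4 had a region with both hairpins at 0 h (chromosome 1, 74571435 to 74571589), which lies past the end of the gene and within Zfp142, a zinc finger gene. Plch2, an eta isoform, had a region with both hairpins at 0 h (chromosome 4, 155008957 to 155009111), 1993 bp inside a listed start. Its paralog Plch1 had 1 peak, with hairpin 133 at 24 h, centred at -662 bp from a listed start, that is, before the gene.

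Plcg2, the close relative of the targeted gene that immune receptors use, had 2 peaks in its body with hairpin 133 at 24 h (chromosome 8, starting at 117541127 and 117562481) and 0 in the other lists. Plcl2, whose protein resembles phospholipase C but lacks catalytic activity, had 1 peak with hairpin 133 at 0 h. Plcg1, Plcb2, Plcb3, Plce1, Plcl1 and Plcz1, the sperm isoform, had none.

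Protein kinases C and D had a peak at 9 of 11 members, 4 and 5 of them at 0 h, then 3 and 4 at 24 h, in the order of hairpins 133 and 14. The background at their lengths would give 3.22 and 2.75, then 2.48 and 2.24, and 5.53 over all lists. Prkch, the gene of protein kinase C eta, which responds to diacylglycerol and not to calcium, had 6 and 5 peaks at 0 h and 5 and 2 at 24 h. That is 18 of the 87 member peaks (20.7%), in 10 regions. Of the 21883 protein-coding genes, 3 had as many peaks or more and 8 as many regions or more, Prkch included. Among the 1872 genes of 100 to 300 kb these numbers were 2 and 5.

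The regions of Prkch (chromosome 12, body 73584796 to 73778185) differed in how many lists held them. The region in all 4 lists, at 73578485 to 73578641, lies outside the body, 6155 bp below its lower coordinate. Both hairpins had identical coordinates there within a time, and the 0 h and 24 h peaks were 6 bp apart. At the lower end of the body, 73584692 to 73584855 was listed with hairpin 133 at both times and with hairpin 14 at neither, in a stretch that the predicted gene LOC115488016 also covers. The regions shared by both hairpins at 0 h alone, written by their first base as 73630569, 73687036 and 73702472, had identical coordinates with each hairpin and were in no 24 h list. The region at 73656918 to 73657100 was listed with hairpin 14 at both times, with starts 32 bp apart. The 4 regions in 1 list all belonged to hairpin 133, 1 at 0 h (73584379, also in LOC115488016) and the others at 24 h (73635778, 73724008 and 73775438, the last within the predicted gene Gm34189).

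The surroundings of Prkch also held more peaks per Mb than the windows of all protein-coding genes. Its window held 28.1 and 23.4 peaks per Mb at 0 h and 23.4 and 9.37 at 24 h (hairpins 133 and 14). The 2 Mb on either side held 5.75 and 5.25 per Mb at 0 h and 2.50 and 4.25 at 24 h, and the windows of all protein-coding genes 2.16 and 1.87, then 1.70 and 1.59. Protein-coding windows of chromosome 12 as a whole held 3.28 and 2.90, then 2.80 and 2.54. With hairpin 133 at 24 h that value was above the 2.50 of the surroundings. The part of this chromosome's higher density in the count of Prkch was not tested.

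Prkca, a kinase that needs both calcium and diacylglycerol, had 4 and 1 peaks at 0 h and 0 and 1 at 24 h in a body of 411 kb. Both hairpins shared 1 of its 5 regions, at 0 h (chromosome 11, 107970022 to 107970173, starts 1 bp apart). Prkcb, of the same class, had 1 peak with each hairpin at 24 h and 0 at 0 h. On chromosome 7 that of hairpin 133 began at 122279984, before the gene, and that of hairpin 14 at 122313897, inside it. Prkce, a relative of Prkch, had 2 and 1 peaks at 0 h and 0 at 24 h, on chromosome 17 from 86342596 and 86536486 (hairpin 133) and from 86246198 (hairpin 14). Each of 5 further kinases held 1 peak. Hairpin 133 gave Prkci, an atypical isoform, at 0 h and Prkd1 at 24 h. Hairpin 14 gave Prkcz, the other atypical isoform, and Prkd3 at 0 h, and Prkd2 at 24 h. The Prkcz peak lay 511 bp inside a listed start. Prkcd and Prkcq, the isoform best known from T cells, had no peak.

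**Figure D4:**
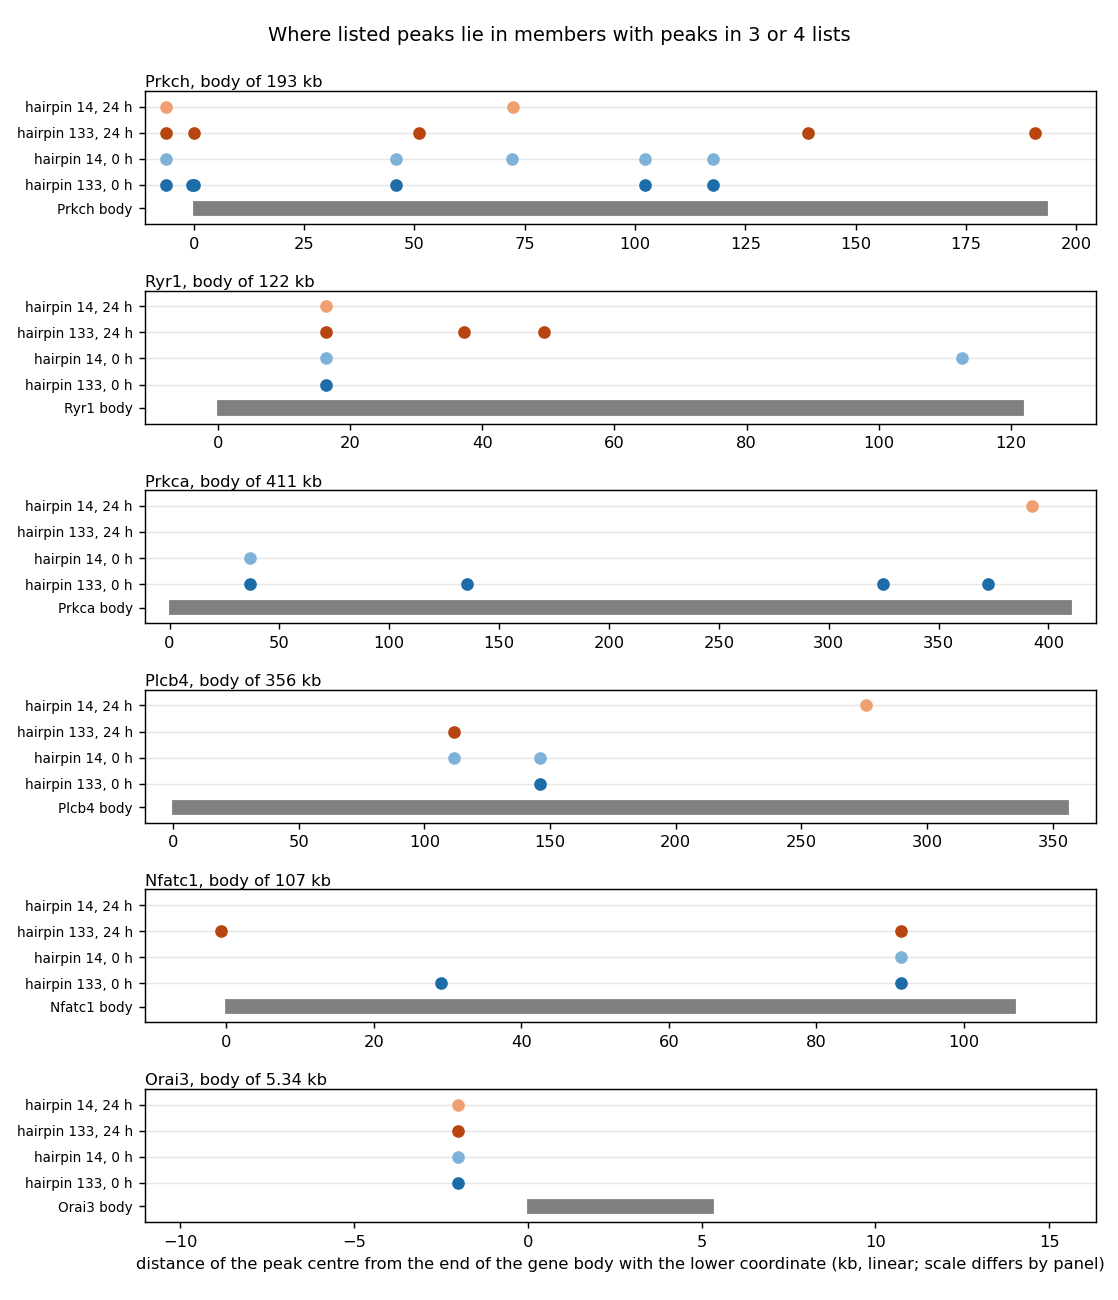
Position of each listed peak (points, 1 row per list) along the 6 members with peaks in 3 or 4 lists, as the distance of the peak centre from the lower-coordinate end of the gene body (x axis, kb; grey bar, gene body; scale differs by panel). Prkch, Ryr1 and Orai3 each have 1 place where all 4 rows hold a point, and Plcb4 has none.

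Of the 6 calcium release channels, 4 had a peak, with 2 and 3 at 0 h and 1 and 1 at 24 h. The background of their length classes would give 2.21 and 1.86, then 1.71 and 1.50. Ryr1, the release channel of skeletal muscle, had 1 and 2 peaks at 0 h and 3 and 1 at 24 h in 4 regions. The region at chromosome 7, 29019599 to 29019772, in the gene body, was listed in all 4 libraries, at identical coordinates within a time and 23 bp apart between times. The other 3 regions of Ryr1 belonged to 1 list each, 2 of them to hairpin 133 at 24 h (from 29040496 and 29052541) and 1 to hairpin 14 at 0 h (from 29115891). Among the 1872 genes of its length class, 50 had 7 peaks or more. Ryr3 had 1 peak, with hairpin 133 at 0 h, and Itpr1 and Itpr2, genes of IP3 receptors, had 1 each with hairpin 14 at 0 h. Ryr2, the heart isoform, held none in 554 kb, and Itpr3 none in 65.2 kb.

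Store-operated entry genes with a peak were Orai3 and Stim1, 2 of 5, where the background of their length classes would give 1.61. By list these were 2 and 1 members at 0 h and 1 and 1 at 24 h, against 0.845 and 0.740, then 0.658 and 0.624. Orai3, a pore subunit, is the shortest member at 5.34 kb and had 1 peak in each of the 4 lists, in 1 region at chromosome 7, 127767726 to 127767889. That region lies 1.93 kb outside the body, on the side of the start, and inside Fbxl19, whose protein binds CpG islands. Coordinates were again identical within a time and 13 bp apart between times. Of the 14378 protein-coding genes under 30 kb, 285 had 4 or more peaks. Stim1, the store sensor, had 1 peak with hairpin 133 at 0 h (chromosome 7, 102435365 to 102435515) near the far end of its body. Orai1, Orai2 and Stim2 had none.

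Among the 7 genes that read or remove diacylglycerol, 2 had a peak. Rasgrp1, an exchange factor that turns on Ras, had a region with both hairpins at 0 h (chromosome 2, 117334920 to 117335081, starts 11 bp apart) and 0 peaks at 24 h. Dgkz, a kinase that converts diacylglycerol to phosphatidic acid, had a region with hairpin 133 at both times (chromosome 2, 91976015 to 91976181, starts 16 bp apart) and 0 peaks with hairpin 14. Rasgrp2, Rasgrp3, Rasgrp4, Dgka and Dgkg had none. By list, peaks fell in 2 members with hairpin 133 and 1 with hairpin 14 at 0 h, then in 1 and 0. These lengths would give 1.03, 0.8995, 0.823 and 0.782, and 2.10 over all lists.

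Calcineurin and NFAT genes had peaks at 4 of 7 members, with 3 and 2 at 0 h and 2 and 0 at 24 h (hairpins 133 and 14). At these lengths the background would give 1.47 and 1.29 at 0 h, 1.12 and 1.08 at 24 h, and 2.81 over all lists. Nfatc1, a transcription factor that calcineurin frees to enter the nucleus, had 2 and 1 peaks at 0 h and 2 and 0 at 24 h. Its region at chromosome 18, 80697535 to 80697687, was listed with both hairpins at 0 h and with hairpin 133 at 24 h, within 2 bp. Its other regions were hairpin 133's, from 80635191 at 0 h and from 80605425 at 24 h, the latter beside the body and in the predicted gene Gm41790. Ppp3ca, a catalytic subunit of calcineurin, had 1 peak with hairpin 133 at each time, at 136881522 (0 h) and 136681156 (24 h) of chromosome 3. Nfatc2 had 1 peak with hairpin 14 at 0 h. Nfatc3 had 2 with hairpin 133 at 0 h, both past its end and in 1810019D21Rik. Nfatc4, Ppp3cb and Ppp3cc had none.

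Calmodulin-dependent kinases had peaks with hairpin 133 in 1 of 5 members at 0 h and 3 at 24 h, and with hairpin 14 in 0 at both times. Camk2a, the subunit of brain CaMKII, had 1 peak with hairpin 133 at each time, from 60932654 of chromosome 18 at 0 h and from 60946976 at 24 h. Camk2d and Camk2g, the widely expressed subunits, had 1 each with hairpin 133 at 24 h, in Camk2d 937 bp inside a listed start. Camk2b and Camk4 had none. At these lengths the background would give 1.09 and 0.957 members at 0 h and 0.824 and 0.803 at 24 h, so the 0 of hairpin 14 is less than 1 member short of it.

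Of the 62 member regions, 18 (29.0%, exact binomial 95% interval 18.2 to 41.9%) were in 2 or more lists, against 22.3% of regions in all protein-coding windows. Without Prkch the share was 23.1%. Both hairpins shared 12 member regions at 0 h, in 9 members (16.1%, against 4.61% of protein-coding genes), and 4 regions at 24 h, in 4 members (7.14%, against 3.37%). The 9 at 0 h were Nfatc1, Orai3, Plcb4, Plcd4, Plch2, Prkca, Prkch, Rasgrp1 and Ryr1, and the 4 at 24 h were Orai3, Plcd3, Prkch and Ryr1. Between times, hairpin 133 shared 6 regions in 5 members (8.93%, against 2.47%) and hairpin 14 shared 5 regions in 4 members (7.14%, against 2.32%). Orai3, the shortest member, and the longer Prkch and Ryr1 each had 1 region in all 4 lists (5.36% of members, against 1.28%). These backgrounds were not adjusted for gene length. As a share of regions, those of both hairpins at 24 h came to 6.45% in members and 8.68% in all protein-coding windows, so the share of genes and the share of regions stood on opposite sides of the background. At 0 h the shares of regions were 19.4% and 12.55%.

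Counted by gene, 14 members had 1 peak over all lists, 11 had 2, and the rest of the 33 had between 3 and 18. Peaks in 1 list only were found for 16 of the 33 (48.5%, against 57.2% of the 5689 protein-coding genes with a peak), and peaks in all 4 for Orai3, Plcb4, Prkch and Ryr1 (12.1%, against 7.96%). At 0 h only, 15 members had peaks (45.5%, against 39.6%), and at 24 h only 8 (24.2%, against 31.3%). The 8 were Camk2d, Camk2g, Plcd3, Plcg2, Plch1, Prkcb, Prkd1 and Prkd2. With hairpin 133 only there were 13 members (39.4%, against 35.7%) and with hairpin 14 only 7 (21.2%, against 26.7%), the latter being Itpr1, Itpr2, Nfatc2, Plcd1, Prkcz, Prkd2 and Prkd3. These shares by gene were not adjusted for gene length either. The median body was 125.2 kb in the 33 members and 36.3 kb in the 5689 genes.

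**Figure D5:**
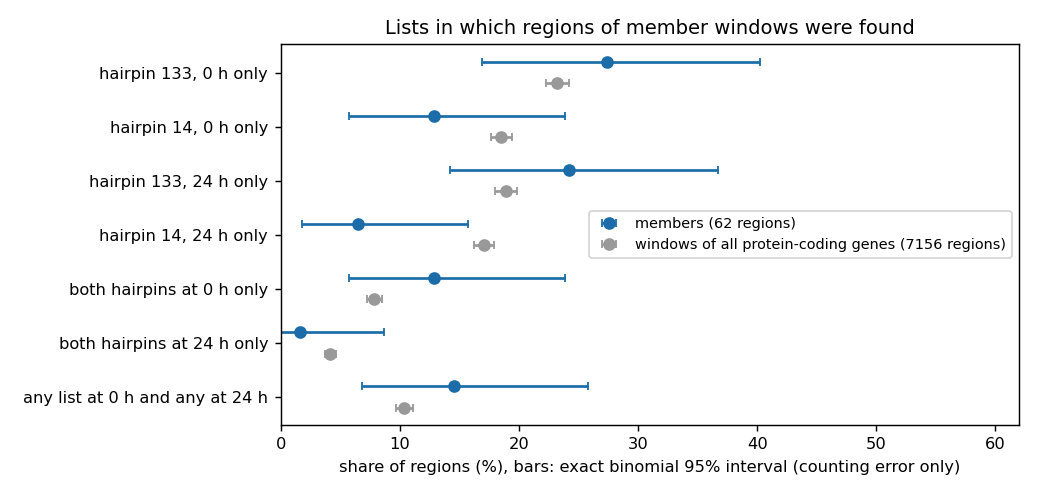
Share of regions (x axis, percent; bars, exact binomial 95% interval for counting error) by the lists that held them, for the 62 member regions (blue) and the 7156 regions in windows of all protein-coding genes (grey). Regions of hairpin 14 at 24 h only made up 6.45% of member regions and 17.05% of the grey set, which includes the member regions. The interval of the members ends at 15.7%. Without Prkch it reaches 18.5% and takes in 17.05%.

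Regions listed with hairpin 14 at 24 h and nowhere else were 4 of 62 (6.45%, 1.79 to 15.7%), against 17.05% in all protein-coding windows. They lay in Plcb4, Prkca, Prkcb and Prkd2. Without Prkch they were 4 of 52 (7.69%, 2.14 to 18.5%), an interval that takes in the share of all protein-coding windows. Regions of hairpin 133 alone, at either or both times, made up 34 (54.8%, 41.7 to 67.5%), against 43.4%, and those of hairpin 14 alone 14 (22.6%, 12.9 to 35.0%), against 36.5%. Without Prkch the latter were 13 of 52 (25%, 14.0 to 38.9%), which takes in 36.5%. Regions of 0 h alone were 33 (53.2%, 40.1 to 66.0%), against 49.6%, and those of 24 h alone 20 (32.3%, 20.9 to 45.3%), against 40.1%.

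Shared peaks often had the same coordinates within a time and never between times in the members. Of the 12 regions both hairpins shared at 0 h, 7 had identical start and end, and so had 4 of 4 at 24 h, against 79.4% and 92.8% over all peaks. The 5 with an offset at 0 h lay in Plcb4, Plcd4, Plch2, Prkca and Rasgrp1, by 1 to 22 bp. Between times, 0 of the 6 regions of hairpin 133 and 0 of the 5 of hairpin 14 were identical, against 2.75% and 2.71% over all peaks. The sources used here do not say whether peaks of a time were called against the same library, and what part that has here was not tested.

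Of the 62 member regions, 50 touched the member's body (80.6%) and 12 lay outside it, 7 of these 12 inside another gene. Bodies make up 88.9% of the summed window length of members. Over all protein-coding genes, 70.3% of the 8865 pairs of a gene and a region lay in the body, which is 70.6% of the window length. Start positions were available in RefSeq for 43 of the 56 members, and 5 of their 38 regions had the centre within 1 kb of a listed start (13.2%, against 14.9% over all protein-coding genes with a listed start): those of Camk2d, Plcd3, Plch1, Prkcz and Prkd3. None of these 5 was listed at both times, and the Plcd3 region was the one found with both hairpins. Counted by body ends in place of listed starts, 8 member regions had the centre within 1 kb of either end. Of these, the Dgkz region and the Prkch region at 73584692 were listed with hairpin 133 at both times. Start regions of the 24 members with a peak had a median of 22.5 CG pairs in 300 bases, and those of the 19 with no peak 26. Over all 17491 protein-coding genes with a start region the median was 13, with 18 for genes with a peak and 11 for the others. The ratio of observed to expected CG pairs was 0.783 and 0.708 in members with and without a peak, against 0.700 and 0.504 in all protein-coding genes.

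The 23 members with no peak had a median length of 54.1 kb, against 125.2 kb for the 33 with a peak. Their nearest peak in any list lay 11.6 to 519 kb from the body, with a median of 52.5 kb. Ppp3cc was nearest, at 11.6 kb, just outside the 10 kb limit, followed by Stim2 at 12.8 kb. The farthest was Camk4, a calmodulin-dependent kinase of 261 kb, at 519 kb. Just inside the limit lay the peaks counted for Prkcb at 8.97 kb and Plcd1 at 8.92 kb.

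Genes of the same pathway outside the 56 were described from a list of 51 symbols of phosphoinositide enzymes, other diacylglycerol kinases, calcium pumps and exchangers, TRPC channels, calmodulins and calcineurin regulators. Peaks were found for 11 and 10 of them at 0 h, then for 9 and 8 at 24 h (hairpins 133 and 14), where their lengths would give 10.1 and 8.72, then 7.84 and 7.33. Their shares were 21.6% and 19.6% at 0 h and 17.6% and 15.7% at 24 h, against 33.9%, 30.4%, 26.8% and 16.1% of members. These shares were not adjusted for the lengths of the 2 sets of genes. Per Mb of window, the 51 genes held 6.39 distinct regions (4.64 to 8.58), members 6.15 and members without Prkch 5.27. Peaks in 3 lists were found for Atp2b1, a plasma membrane calcium pump, Slc8a3, a sodium-calcium exchanger, Trpc4, a cation channel, and Cabin1, a calcineurin inhibitor, and in all 4 lists for none of the 51. Atp2b1 and Trpc4 each had 0 and 1 peaks at 0 h and 1 with each hairpin at 24 h, and Slc8a3 had 1 in every list but that of hairpin 133 at 24 h. Cabin1 had 1 and 0 peaks at 0 h and 4 and 2 at 24 h, the most of the 51.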

How the data were processed

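Peak lists of 4 libraries were analysed, 1 each for hairpins 133 and 14 at 0 h and 24 h. Sheared DNA (3 ug, about 150 bp) was bound to 60 ug of MBD2-Fc and the fraction eluted at 1 M NaCl was sequenced, per the labels' protocols. The build mm10 and the programs BWA, HOMER, Picard and SAMtools are named, with no role, per the submitters' processing notes. Versions, the threshold and the comparison library are not given in the sources used here. The deposited lists, as the authors made them, hold chromosome, start and end of each peak in base pairs, with no header, score or count. Coordinates are printed 1-based, with file starts taken as 0-based. Read depth is unknown, so no interval for methylation can be given.

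Gene bodies came from the RefSeq table of GRCm38.p6, whose chromosomes match mm10. The table gives gene bodies without exons, so exon, intron and untranslated region could not be told apart. Strand and starts came from RefSeq start regions, available for 43 of the 56 members. Peaks counted for a gene by 1 bp of overlap with its body or the 10 kb on either side, and peaks overlapping by 1 bp were merged into regions. No test was run, since every group is 1 library. Backgrounds are shares of protein-coding genes, overall or in 4 length classes. Intervals are exact at 95% and cover counting error only. Plcg1 and every member with a peak were named by step, with coordinates for those in 2 or more lists, genes of the wider list where they had peaks in 3 or more lists, and other genes where they hold a member's peak. The members, lists and rules were chosen with earlier results of these data known. The overlap code was tested on simulated peaks in 200 genes. Work was done in Python 3.11.15 with pandas 2.3.3, NumPy 2.4.6 and SciPy 1.17.1. Alternatives were the gene body alone, 50 kb windows, peak centres, an overlap of 50% of both peaks, removal of identical coordinates, of chromosomes 10 and 12 or of peaks in other gene bodies, peaks found in another list, and other backgrounds.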

Additional observations from a re-analysis of the deposited data

Results flagged for a closer look

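Ryr1 moved in opposite directions with the hairpins between 0 h and 24 h: the number of peaks rose by 2 with hairpin 133, from 1 to 3, and fell by 1 with hairpin 14, from 2 to 1 (a change of 2 against -1). The difference was not tested, since each value is 1 library. It is listed here because the sign differs between the hairpins. The region in all 4 lists takes no part in it. The peaks that differ are in 1 list each.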

How the results depend on the processing

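Of 103 values recomputed under planned or added alternatives, 81 stayed within 1.5 times the main value or, for shares, within its interval. The share of members with a peak exceeded that of all protein-coding genes by 6.36 percentage points with hairpin 14 at 24 h. Against genes of the same length classes it was -1.05 points, the 1 value that changed sign. In the other lists that background lowered the excess from 21.2 to 9.86 points (hairpin 133, 0 h), from 19.3 to 9.66 (hairpin 14, 0 h) and from 16.3 to 8.17 (hairpin 133, 24 h). These falls are among the 81, since the limit was the wide binomial interval of the members' share. With the gene body alone, hairpin 14 at 24 h had 6 peaks in place of 10, both hairpins shared 2 regions at 24 h in place of 4, hairpin 14 shared 2 between times in place of 5, and 1 region was in all lists in place of 3. With 50 kb on either side both hairpins shared 7 regions at 24 h. Without peaks of identical coordinates within a time, a removal that takes out most shared peaks by its construction, both hairpins shared 5 regions at 0 h and 0 at 24 h, each hairpin shared 2 between times, 0 were in all lists, and hairpin 14 at 24 h had 6 peaks. Counting peaks found in another list gave 10, 10, 7 and 5 members and 14, 15, 8 and 6 peaks (hairpins 133 and 14 at 0 h, then at 24 h). Without chromosomes 10 and 12, and without Prkch (an alternative added after seeing the data), hairpin 14 shared 3 regions between times. Peak centres, an overlap of 50% of both peaks and peaks in no other gene body moved no value past these limits, and a background of all 49939 genes changed no direction. No paired analysis was possible because each group is 1 library and the lists hold no values to fit. Leaving out a replicate was not possible for the same reason. A subset of stronger peaks could not be made because the lists hold no score. Depth is unknown, so how far it limits these counts cannot be given.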
